A study of Homo sapiens with 3 samples.

Results

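The 48 genes described here encode the tubulins, from which microtubules are built, and the proteins that fold, modify, bind, move along or cut microtubules. They were picked by gene symbol from 46427 genes listed for RNA sequencing of the human cell line MDA-MB-468, and all 48 were found. The rule names no expression value, but the members were chosen with earlier results of these data known. MDA-MB-468 is an epithelial line from a triple-negative breast cancer (TNBC), a tumour low in oestrogen receptor, progesterone receptor and HER2. The series holds 3 libraries, 1 for each of 3 lines. The parental line (MM468) was wild type and untreated. The adriamycin-resistant line was the cells that survived adriamycin raised from 10 to 140 nM, and the paclitaxel-resistant line (MM468/PR) those that survived paclitaxel raised from 2 to 320 nM. Both resistant lines carry the same wild-type genotype label as their parent. No source used here states that either line was cloned, nor whether drug was present when RNA was taken. The question was how expression in each resistant line compared with that of the parental cells.

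Microtubules are hollow polymers of paired alpha- and beta-tubulin that grow and shrink at their ends and form the mitotic spindle. Each subunit is made from several genes, called isotypes, which differ most in the acidic tail at the end of the protein, where modifying enzymes act and many associated proteins bind. Paclitaxel binds beta-tubulin in the polymer and stabilizes it, so that dividing cells arrest in mitosis. Adriamycin (doxorubicin) poisons topoisomerase II on DNA and does not target tubulin.

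The last 20 codons and the stop codon of 4 beta-tubulin isotypes are shown because these tails tell apart closely related genes, and because these genes carry the differences in level described next. They were read from the human genome, build GRCh38, with GENCODE release 29 annotation, and each lies within the last coding exon. Codons for glutamate, the acidic residue to which glutamate chains are added, are in capitals.
TUBB: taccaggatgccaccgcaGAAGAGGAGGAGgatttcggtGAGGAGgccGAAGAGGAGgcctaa
TUBB4B: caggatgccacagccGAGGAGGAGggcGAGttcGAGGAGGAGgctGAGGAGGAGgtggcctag
TUBB6: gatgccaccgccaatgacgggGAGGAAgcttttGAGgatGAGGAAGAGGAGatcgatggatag
TUBB3: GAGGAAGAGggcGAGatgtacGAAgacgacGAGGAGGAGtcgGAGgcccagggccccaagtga
The TUBB tail lies at chr6:30724335-30724397 on the plus strand and holds 9 glutamate codons. The TUBB4B tail (chr9:137243494-137243556, plus strand) holds 10, the TUBB6 tail (chr18:12326068-12326130, plus strand) 7, and the TUBB3 tail (chr16:89935742-89935804, plus strand) 9.

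The isotypes are alike enough that reads can fit more than 1 of them, which bears on every tubulin value below. Of all 100-base windows of the transcript, 56.4% for TUBB2A, 46.2% for TUBB2B, 37.2% for TUBA1B, 26.6% for TUBA1A and 11.5% for TUBA1C occur in another tubulin transcript. For TUBB, TUBB3, TUBB4B and TUBA4A the share lies between 1.84% and 5.15%, and TUBB4A and TUBB6 share 0 windows. The coding sequences of TUBB2A and TUBB2B are 98.1% identical, and those of TUBA1A and TUBA1B 97.2%. How reads with several matches were counted is not given in the sources used here, so the values of these 5 genes are uncertain. Among 25 listed tubulin pseudogenes only TUBBP2, with 2672 parental, 3153 adriamycin-resistant and 1201 MM468/PR counts, was above 427 counts in any library.

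Levels are given on 2 scales. TPM values (transcripts scaled to a common total per library), as deposited, correct for gene length and serve to compare genes within a library. CPM values are read counts, likewise put on a common total, with library sizes scaled with edgeR's trimmed mean of M values (TMM), and serve to compare 1 gene between libraries. Fold changes come from these scaled counts, and the interval beside each is an exact 95% interval for the ratio of the 2 counts. It covers counting error only, because 1 library per line leaves no replicate spread and no test. A gene is called higher or lower from a 2-fold difference. The adriamycin-resistant and MM468/PR comparisons with the parental line use the same parental library, so their values stand side by side without a measure of likeness. In RNA from whole cultures, fewer cells expressing a gene and less RNA per cell cannot be told apart.

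In the paclitaxel-resistant line, TUBB, the main beta-tubulin of most dividing cells, was lower than in the parental line by more than 2-fold. TUBB (chr6:30720201-30725426, plus strand) measured 4511 CPM in the parental, 3038 in the adriamycin-resistant and 1541 in the MM468/PR library. The 3 levels do not come close to each other. MM468/PR was 2.93-fold lower than the parental line (95% interval, 2.90 to 2.95) and the adriamycin-resistant line 1.49-fold lower (1.47 to 1.50). Between the resistant lines the difference was 1.97-fold (1.95 to 1.99), just within the 2-fold limit, and it passed that limit when only those 2 libraries were scaled together (log2 fold change, -1.01). Every other scaling tried left the lower value of TUBB in MM468/PR than in the parental line past 2-fold. The size of the difference depended on the scale, which the interval does not cover. In TPM the parental, adriamycin-resistant and MM468/PR levels were 3779, 2446 and 1615, a smaller difference than in CPM.

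TUBB dominated the beta-tubulin pool in all 3 lines, and its share was smallest in MM468/PR. On the TPM scale TUBB made up 88.8% of the 7 beta-tubulin genes in the parental line, 81.7% in the adriamycin-resistant line and 74.7% in MM468/PR. As shares of read counts, without correction for length, the figures were 92.3%, 87.0% and 81.4%. TUBB4B, a widely expressed isotype that also serves cilia, held 6.98%, 10.4% and 12.6% of beta-tubulin TPM in the same order. TUBB6 held 2.51%, 5.52% and 8.17%, and TUBB3, the isotype typical of neurons, 0.876%, 1.59% and 2.76%. The order of these 4 isotypes was thus the same in each library. TUBB2A came next, with 0.572%, 0.479% and 0.938%, then TUBB2B, with 0.233%, 0.289% and 0.796%, and TUBB4A never passed 0.0169%.

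**Figure D1:**
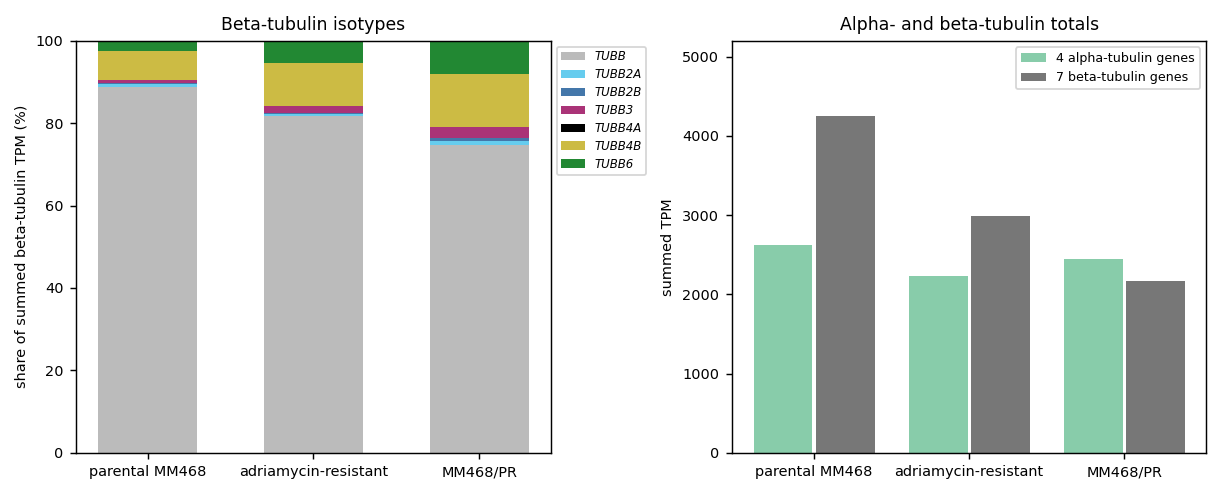
Left, share of each of 7 beta-tubulin genes in their summed TPM (percent, stacked bars, 1 library per line). Right, summed TPM of the 4 alpha- and of the 7 beta-tubulin genes. TUBB stands at 88.8% in the parental, 81.7% in the adriamycin-resistant and 74.7% in the MM468/PR library, and summed beta-tubulin stands above alpha-tubulin in the parental and adriamycin-resistant libraries and below it in MM468/PR.

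The summed beta-tubulin level was 4254 TPM in the parental line, 2994 in the adriamycin-resistant line and 2163 in MM468/PR. Without TUBB, the other 6 beta-tubulins summed to 475.3, 548.1 and 547.6 TPM, or 375.1, 455.5 and 352.9 CPM, so most of the spread of the total lay in TUBB, and whether the others together stood above or below the parental line in MM468/PR depended on the scale. The summed alpha-tubulins were 2617, 2233 and 2441 TPM, or 2331, 2111 and 1746 CPM, a narrower range than that of beta-tubulin, which was 4886, 3493 and 1894 CPM. The ratio of beta- to alpha-tubulin TPM was accordingly 1.63, 1.34 and 0.886. These 11 genes together took 0.687% of all TPM in the parental, 0.523% in the adriamycin-resistant and 0.460% in the MM468/PR library.

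The lesser beta-tubulins stayed within 2-fold in every comparison with the exception of TUBB4A. TUBB6 (chr18:12307669-12344320, plus strand) measured 95.5 CPM in the parental, 153.0 in the adriamycin-resistant and 125.9 in the MM468/PR library. It was 1.60-fold higher in the adriamycin-resistant line than in the parental line (1.53 to 1.67) and 1.32-fold higher in MM468/PR (1.26 to 1.38). TUBB6 shares 837 exon bases with AFG3L2 on the opposite strand, whose counts were 6322, 11428 and 12522, and whether strand was used in counting is not given. TUBB3 (chr16:89921392-89938761, plus strand) measured 30.4, 40.3 and 38.9 CPM in the same order. That is 1.33-fold higher in the adriamycin-resistant line (1.23 to 1.44) and 1.28-fold higher in MM468/PR (1.18 to 1.39) than in the parental line. TUBB3 shares 1584 of its 4430 exon bases with AC092143.1 on the same strand, and how reads in shared exons were counted is not given. For TUBB6 and TUBB3 both resistant lines thus lay above the parental line, by less than the limit for a call.

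TUBB4B (chr9:137241213-137243707, plus strand) measured 221.3 CPM in the parental, 241.9 in the adriamycin-resistant and 162.8 in the MM468/PR library, a 1.36-fold lower value in MM468/PR than in the parental line (1.31 to 1.40). TUBB2A (chr6:3153669-3157526, minus strand) measured 18.8, 11.5 and 12.6 CPM, with the adriamycin-resistant line 1.63-fold below the parental line (1.45 to 1.84), among the 3 lowest of the 48 genes in that comparison. TUBB2B (chr6:3224261-3231730, minus strand), its close copy, measured 9.10, 8.27 and 12.6 CPM, with MM468/PR 1.39-fold above the parental line (1.20 to 1.60). The opposite positions of these neighbouring genes rest on reads that may be exchanged between them. TUBB4A (chr19:6494319-6502848, minus strand), an isotype of brain, had 0 parental, 26 adriamycin-resistant and 10 MM468/PR counts. Set against 3 counts, taken as the upper limit for a library with 0, it was at least 5.92-fold higher in the adriamycin-resistant line and at least 2.16-fold higher in MM468/PR. These values take the 26 and 10 counts at face value. The exact 95% lower limits, which also cover their counting error, were 4.48-fold and 1.45-fold, the latter under 2-fold. It was 2.71-fold lower in MM468/PR than in the adriamycin-resistant line, with a wide interval (1.28 to 6.37) and no call with TPM (log2 fold change, -0.95 with a pseudocount of 0.1). At 0.505 TPM or less TUBB4A added almost nothing to the pool.

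Of the 4 alpha-tubulins, TUBA4A alone differed by 2-fold, in MM468/PR. TUBA4A (chr2:219249711-219278170, minus strand) had 379 parental, 504 adriamycin-resistant and 94 MM468/PR counts, or 12.2, 11.1 and 1.97 CPM. The parental and adriamycin-resistant levels were alike within counting error (1.10-fold lower in the adriamycin-resistant line, 0.961 to 1.26). MM468/PR was 6.21-fold lower than the parental line (4.95 to 7.88) and 5.64-fold lower than the adriamycin-resistant line (4.53 to 7.12), the lowest fold change of the 48 genes in both comparisons. Both differences were past 2-fold under every alternative tried. TUBA4A shares 627 exon bases with STK16 on the opposite strand, whose counts were 929, 2123 and 829.

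TUBA1B, the most abundant alpha-tubulin, held 75.0%, 72.2% and 73.2% of alpha-tubulin TPM in the parental, adriamycin-resistant and MM468/PR libraries. TUBA1C held 19.2%, 22.3% and 20.4%, TUBA1A 5.33%, 5.01% and 6.26%, and TUBA4A 0.461%, 0.483% and 0.102%. All 3 larger genes lie side by side on chromosome 12. TUBA1B (chr12:49127782-49131397, minus strand) measured 1523, 1301 and 1107 CPM, TUBA1C (chr12:49188736-49274603, plus strand) 676.3, 697.3 and 535.9 CPM, and TUBA1A (chr12:49184796-49189324, minus strand) 119.6, 101.7 and 101.2 CPM. TUBA1B was 1.38-fold lower in MM468/PR than in the parental line (1.36 to 1.39), TUBA1C 1.26-fold lower (1.24 to 1.29) and TUBA1A 1.18-fold lower (1.13 to 1.23). The direction of TUBA1A depended on scaling, since with TPM it was higher in MM468/PR than in the parental line (log2 fold change, 0.13).

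The tubulins outside the alpha-beta polymer were all within 2-fold. Gamma-tubulin seeds new microtubules at the centrosome, and delta- and epsilon-tubulin belong to centrioles. TUBG1 (gamma-tubulin) measured 120.5 CPM in the parental, 200.3 in the adriamycin-resistant and 116.5 in the MM468/PR library, 1.66-fold higher in the adriamycin-resistant line (1.60 to 1.73). TUBG2, its less abundant copy (chr17:42659305-42667006, plus strand), had 886, 2592 and 2632 counts, or 28.6, 57.1 and 55.0 CPM. It stood at the limit, 2.00-fold higher in the adriamycin-resistant line (1.85 to 2.16) and 1.93-fold higher in MM468/PR (1.78 to 2.08) than in the parental line. With library size alone both passed 2-fold (log2 fold changes, 1.01 and 1.17). TUBD1 measured 12.0, 17.9 and 12.3 CPM and TUBE1 27.5, 27.9 and 21.5 CPM.

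**Figure D2:**
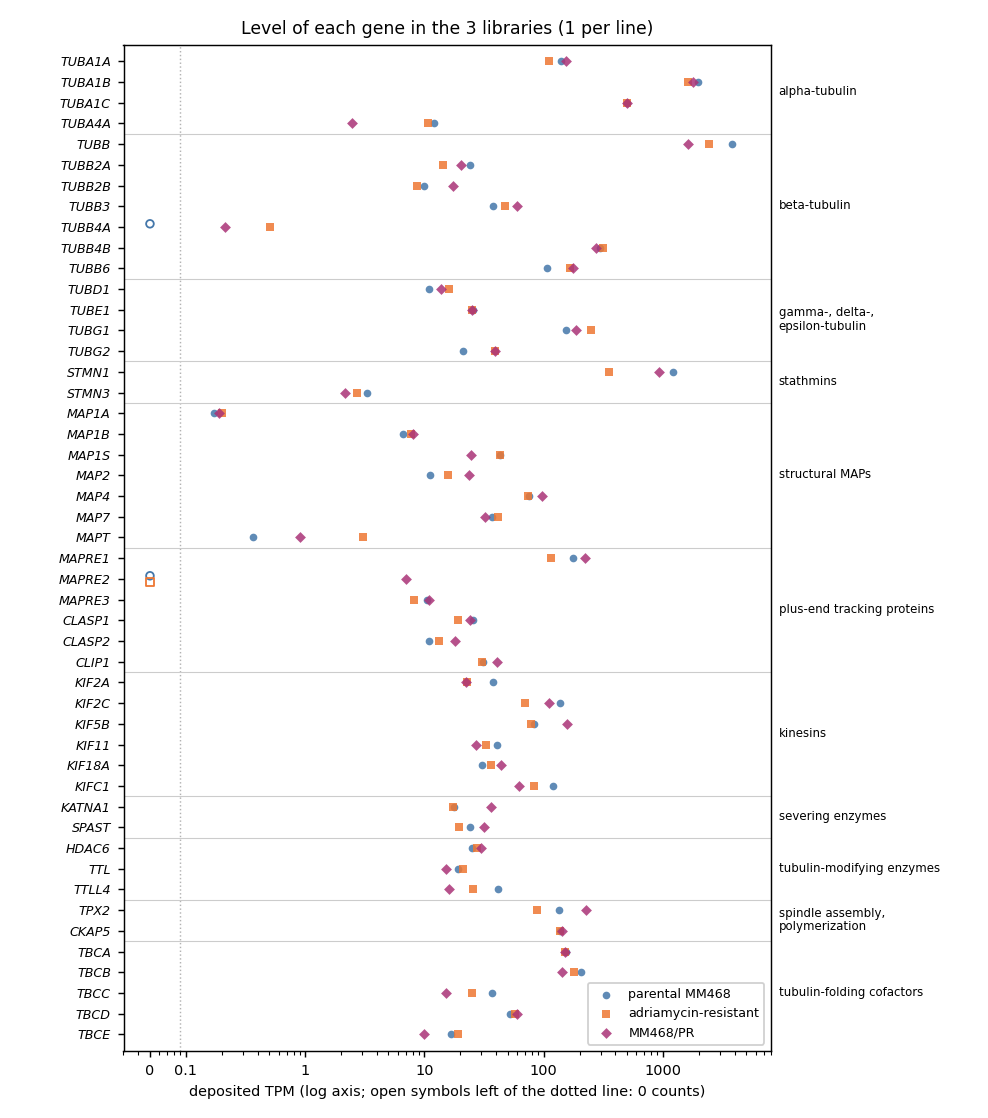
Deposited TPM (log axis) of the 48 genes in the parental (circle), adriamycin-resistant (square) and MM468/PR (diamond) libraries, 1 symbol per library, grouped by role; open symbols at the left mark 0 counts. Levels run from 0.172 TPM (MAP1A) to 3779 TPM (TUBB) in the parental line, and MAPRE2 has 0 counts in the parental and adriamycin-resistant libraries and 6.96 TPM in MM468/PR.

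Stathmin, an abundant regulator in the parental line, was lower in the adriamycin-resistant line. STMN1 (chr1:25884181-25906991, minus strand) encodes a small protein that binds tubulin dimers and promotes shrinkage of microtubules. It measured 841.0 CPM in the parental, 253.7 in the adriamycin-resistant and 512.0 in the MM468/PR library. The adriamycin-resistant line was 3.32-fold lower than the parental line (3.24 to 3.39), the lowest fold change of the 48 genes in that comparison, and MM468/PR 1.64-fold lower (1.61 to 1.67). MM468/PR lay 2.02-fold above the adriamycin-resistant line (1.97 to 2.06), which scaling of those 2 libraries alone brought under 2-fold (log2 fold change, 0.98). STMN3, a related gene typical of neurons, had 116, 155 and 101 counts, and MM468/PR was 1.77-fold below the parental line (1.35 to 2.34).

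Among 7 structural microtubule-associated proteins, which bind along the lattice and stabilize it, MAPT was higher in the adriamycin-resistant line and MAP1S lower in MM468/PR. MAPT encodes tau (chr17:45894382-46028334, plus strand), a stabilizer of microtubules best known in neurons. It had 38 parental, 394 adriamycin-resistant and 97 MM468/PR counts, or 1.23, 8.68 and 2.03 CPM. The adriamycin-resistant line was 7.07-fold higher than the parental line (5.07 to 10.2), the largest fold change of the genes with counts in both libraries. In MM468/PR the value was 1.65-fold higher than in the parental line (1.13 to 2.48) and 4.28-fold lower than in the adriamycin-resistant line (3.42 to 5.40). Even in the adriamycin-resistant line the level was 3.06 TPM, against 74.4 TPM for MAP4, the main associated protein of non-neuronal cells.

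MAP4 was the steadiest of the group in CPM, with 225.1, 228.2 and 225.6 in the parental, adriamycin-resistant and MM468/PR libraries, and stood at 75.1, 74.4 and 96.2 TPM. MAP1S (chr19:17719242-17734516, plus strand), which links microtubules with autophagy, measured 68.0, 70.2 and 31.0 CPM. It was 2.19-fold lower in MM468/PR than in the parental line (2.05 to 2.34) and 2.26-fold lower than in the adriamycin-resistant line (2.13 to 2.41). Neither call held with library size alone (log2 fold changes, -0.91 and -0.96) or with TPM (-0.78 and -0.77 with a pseudocount of 1). MAP2 (chr2:209424058-209734118, plus strand), a protein of neuronal dendrites, measured 33.6, 53.9 and 66.4 CPM and was 1.97-fold higher in MM468/PR than in the parental line (1.84 to 2.12). With library size alone MAP2 passed 2-fold (log2 fold change, 1.20). MAP7, a recruiter of kinesin-1, measured 80.2, 82.0 and 48.5 CPM, MAP1B 36.9, 45.2 and 35.9 CPM, and MAP1A had 27, 47 and 36 counts.

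MAPRE2 alone among the 48 genes had counts in a single line. It encodes EB2, and with MAPRE1 (EB1) and MAPRE3 (EB3) it belongs to the end-binding proteins that ride on growing plus ends. MAPRE2 (chr18:34976928-35143470, plus strand) had 0 counts in the parental and adriamycin-resistant libraries and 534 in MM468/PR, or 11.2 CPM. Against 3 counts, MM468/PR was at least 115-fold higher than the parental line and at least 169-fold higher than the adriamycin-resistant line, and no fold is given between the libraries with 0. The exact 95% lower limits were 93.5-fold and 136.9-fold. The counting limit in the parental library was 0.0968 CPM and in the adriamycin-resistant library 0.0661 CPM. The gene passed the filter on low counts only through MM468/PR.

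The other plus-end proteins, which include the CLASP rescue factors and the linker CLIP1, were within 2-fold in all 3 comparisons. MAPRE1 measured 213.5 CPM in the parental, 146.5 in the adriamycin-resistant and 216.5 in the MM468/PR library, and was 1.46-fold lower in the adriamycin-resistant line (1.41 to 1.51). In MM468/PR the TPM of MAPRE2, 6.96, was set beside 220.7 for MAPRE1 and 10.9 for MAPRE3, so EB1 remained by far the most abundant of the family. MAPRE3 measured 9.29, 7.63 and 7.82 CPM. CLASP1 measured 95.6, 74.9 and 72.2 CPM, CLASP2 37.5, 46.6 and 48.7 CPM, and CLIP1 87.0, 89.0 and 91.8 CPM.

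Of 6 kinesins, the motor proteins of microtubules, KIF2A and KIFC1 were lower in MM468/PR. KIFC1 (chr6:33391536-33409924, plus strand), a minus-end motor that gathers extra centrosomes, measured 139.6 CPM in the parental, 99.7 in the adriamycin-resistant and 58.1 in the MM468/PR library. MM468/PR was 2.40-fold lower than the parental line (2.29 to 2.52), and this fell short of 2-fold with TPM (log2 fold change, -0.95). KIF2A (chr5:62306162-62537249, plus strand), a kinesin-13 that takes microtubules apart at their ends, measured 88.4, 81.4 and 39.4 CPM. On that scale MM468/PR was 2.25-fold lower than the parental line (2.12 to 2.38) and 2.07-fold lower than the adriamycin-resistant line (1.96 to 2.19). The deposited TPM gave another picture, 37.7, 22.8 and 22.2, with the adriamycin-resistant line level with MM468/PR. KIF2A also shares 428 exon bases with IPO11 on the same strand, so the call for MM468/PR depends on the unit.

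The remaining kinesins stayed within 2-fold. KIF2C, the mitotic kinesin-13 (chr1:44739818-44767767, plus strand), measured 185.8 CPM in the parental, 99.5 in the adriamycin-resistant and 123.9 in the MM468/PR library, 1.87-fold lower in the adriamycin-resistant line (1.80 to 1.94) and next to STMN1 in rank there. KIF11, the motor that pushes spindle poles apart, measured 97.0, 81.6 and 51.3 CPM and was 1.89-fold lower in MM468/PR than in the parental line (1.79 to 1.99). KIF5B, the main carrier of cargo among them, went the other way, with 231.3, 228.9 and 352.0 CPM, 1.52-fold higher in MM468/PR (1.48 to 1.57). KIF18A, which dampens chromosome movement, measured 49.7, 61.7 and 57.6 CPM.

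TPX2 (chr20:31739271-31801805, plus strand) activates the kinase AURKA and seeds microtubules around chromosomes. It measured 221.8 CPM in the parental, 150.7 in the adriamycin-resistant and 297.2 in the MM468/PR library. MM468/PR was 1.97-fold higher than the adriamycin-resistant line (1.92 to 2.03), and this passed 2-fold with library size alone (log2 fold change, 1.19) and with TPM (1.35 with a pseudocount of 1). CKAP5, a microtubule polymerase, measured 463.9, 481.6 and 387.9 CPM.

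KIF11, KIF2C, KIFC1 and TPX2 are made mainly by dividing cells, and a list of 16 proliferation genes was measured beside them. In MM468/PR against the parental line 0 of the 16 were higher and 6 lower (median log2 fold change, -0.61), while in the adriamycin-resistant line 0 were higher and 1 lower (median, 0.01). The 6 were PCNA, MCM2, MCM3, MCM5, MCM6 and CDK1, mostly genes of DNA replication. In TPM the difference of PCNA (490.7 parental, 278.2 MM468/PR) and that of MCM3 (175.7 and 108.5) were under 2-fold. MKI67, the usual marker of cycling cells, stood at 80.9 TPM in the parental, 65.7 in the adriamycin-resistant and 59.6 in the MM468/PR library. The part of proliferation in the values of the 48 genes was not tested.

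Severing enzymes cut microtubules along their length, and both measured here were within 2-fold. KATNA1, the catalytic subunit of katanin, measured 15.9 CPM in the parental, 16.2 in the adriamycin-resistant and 26.8 in the MM468/PR library, 1.69-fold higher in MM468/PR than in the parental line (1.52 to 1.88). On the TPM scale KATNA1 reached 2-fold (17.6, 17.2 and 36.2 TPM). SPAST (spastin) measured 60.1, 50.6 and 62.8 CPM.

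Of the 3 tubulin-modifying enzymes, TTLL4, which starts glutamate side chains on the tails shown above and prefers beta-tubulin, was lower in MM468/PR. TTLL4 (chr2:218710845-218755416, plus strand) measured 107.5 CPM in the parental, 79.5 in the adriamycin-resistant and 34.2 in the MM468/PR library. MM468/PR was 3.14-fold lower than the parental line (2.96 to 3.33), which held under every alternative. It was 2.32-fold lower than the adriamycin-resistant line (2.19 to 2.47), which did not hold with TPM (log2 fold change, -0.63 with a pseudocount of 1). TTL, the ligase that restores the final tyrosine of alpha-tubulin, measured 111.9, 100.7 and 57.4 CPM, 1.95-fold lower in MM468/PR than in the parental line (1.85 to 2.05). HDAC6, a deacetylase of alpha-tubulin, measured 49.2, 55.9 and 45.4 CPM.

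The 5 tubulin-folding cofactors join alpha- and beta-tubulin into dimers, TBCB and TBCE on the alpha side and TBCA and TBCD on the beta side, with TBCC acting on the complex at the end. TBCC (chr6:42744481-42746096, minus strand) had 871 parental, 902 adriamycin-resistant and 449 MM468/PR counts, or 28.1, 19.9 and 9.39 CPM. It was 2.99-fold lower in MM468/PR than in the parental line (2.67 to 3.36) under every alternative past 2-fold, and 2.12-fold lower than in the adriamycin-resistant line (1.89 to 2.38). The second difference did not hold with library size alone (log2 fold change, -0.87) or TPM (-0.67 with a pseudocount of 1). TBCB, at 104.0, 92.3 and 58.8 CPM, was 1.77-fold lower in MM468/PR than in the parental line (1.68 to 1.86), and TBCE, at 31.3, 32.8 and 19.5 CPM, 1.61-fold lower (1.47 to 1.76). TBCA measured 51.4, 52.3 and 43.6 CPM and TBCD 121.3, 151.0 and 110.7 CPM.

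In all, 11 of the 48 genes were past 2-fold in at least 1 comparison and 37 were within 2-fold in all 3. All 48 had 10 or more counts in at least 1 library, which was the filter for inclusion, 46 had that many in every library, and TUBB4A and MAPRE2 passed only where they were high. In the adriamycin-resistant line against the parental line 2 were higher (TUBB4A, MAPT) and 1 lower (STMN1), where 12.2% of all 19561 genes compared were higher and 12.0% lower. With a minimum of 100 counts 1 of 46 was higher and 1 lower, where the shares of all genes were 6.91% and 8.38%. The median log2 fold change was 0.02 for the 48 genes and 0.01 for all genes.

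In MM468/PR against the parental line 2 were higher (TUBB4A, MAPRE2) and 7 lower (TUBA4A, TUBB, MAP1S, KIF2A, KIFC1, TTLL4, TBCC), where 20.6% of all genes were higher and 13.7% lower. With the minimum of 100 counts the split was 3 higher and 7 lower of 46, where 12.6% and 11.8% of all genes were called. The 7 lower genes are 14.6% of the 48, near the share of all genes, and the 2 higher ones 4.17%. The median was -0.24 for the 48 genes and 0.07 for all genes. Scaling sets part of this split: with library size alone 4 were higher and 5 lower (median, -0.02, beside 0.29 for all genes), and with TPM and a pseudocount of 1, 3 were higher and 4 lower (median, 0.06, beside 0.26). TUBA4A, TUBB, TTLL4 and TBCC were the 4 lower genes that stayed past 2-fold in each of these settings.

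In MM468/PR against the adriamycin-resistant line 2 were higher (STMN1, MAPRE2) and 7 lower (TUBA4A, TUBB4A, MAP1S, MAPT, KIF2A, TTLL4, TBCC), where 20.0% of all genes were higher and 13.4% lower. With the minimum of 100 counts 3 were higher and 5 lower of 46, where 13.0% and 11.3% of all genes were called. The median was -0.31, beside 0.06 for all genes. The 3 medians of the 48 genes were the same to 2 decimals with 0 counts set to 3. With library size alone the split was 3 higher and 4 lower (median, -0.09), and with TPM and a pseudocount of 1 it was 4 higher and 2 lower (median, 0.04). TUBA4A and MAPT stayed lower, and STMN1 and MAPRE2 higher, by 2-fold or more in these 2 settings.

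**Figure D3:**
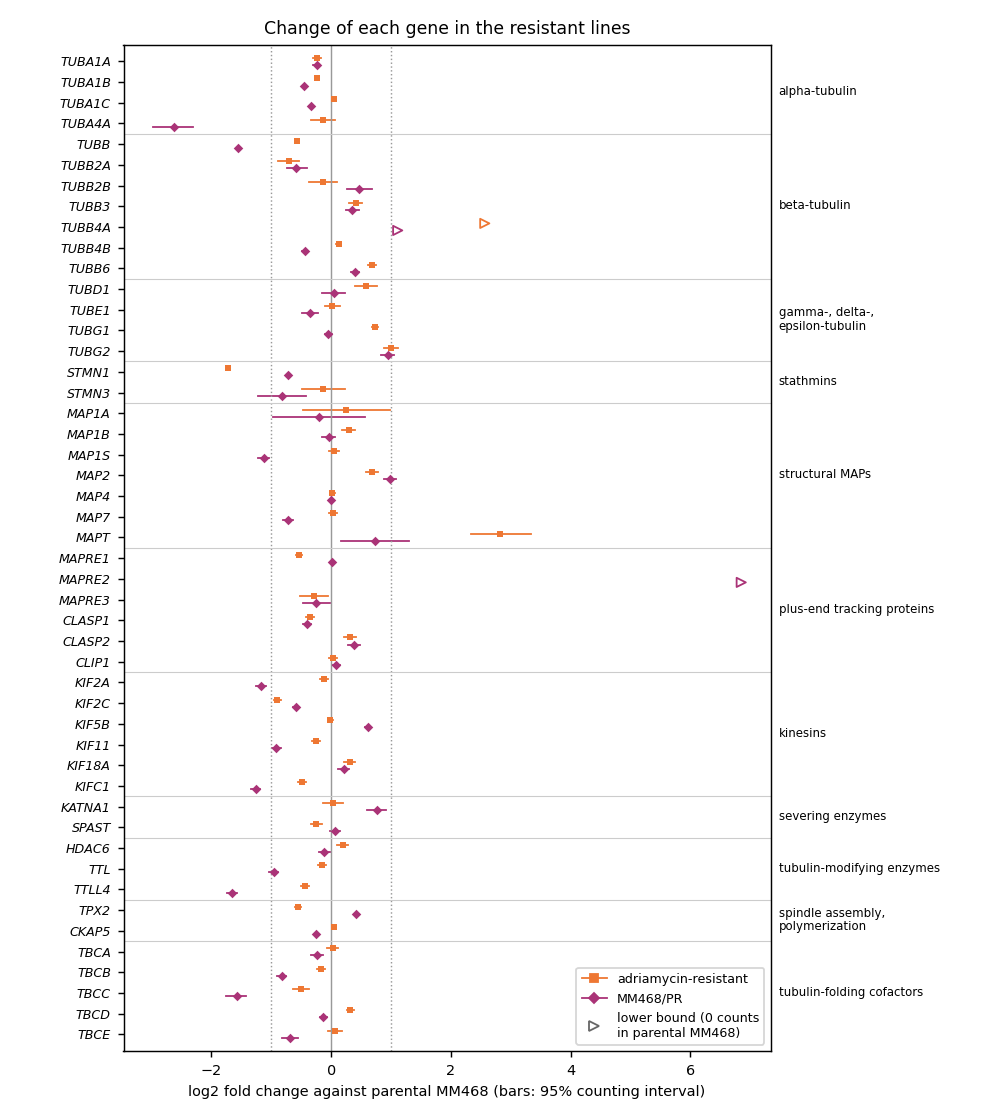
Log2 fold change (horizontal axis) of the 48 genes in the adriamycin-resistant line (square) and MM468/PR (diamond) against the same parental library, with bars for the 95% counting interval, dotted lines at 2-fold and triangles for lower bounds where the parental library has 0 counts. Squares beyond the dotted lines are STMN1 and MAPT, with a bound for TUBB4A; diamonds beyond them on the left are 7 genes led by TUBA4A at -2.63.

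Beyond the 48, a further 8 lists held 173 microtubule genes, of which 156 passed the same filter. Counts for these lists are given with 0 counts set to 3, so that no gene is called on a fitted value against 0. In the adriamycin-resistant line against the parental line 8 were higher and 15 lower (5.13% and 9.62%), where 10.5% and 11.5% of all genes were called in the same way. In MM468/PR against the parental line 19 were higher and 15 lower (12.2% and 9.62%, beside 20.1% and 13.7%), and against the adriamycin-resistant line 24 and 16 (15.4% and 10.3%, beside 19.8% and 13.3%). With fitted values against 0 the 8 and 15 of the adriamycin-resistant line were 12 and 16. Scaling moved the split of MM468/PR against the parental line to 26 higher and 10 lower with library size alone, and to 16 and 8 with TPM and a pseudocount of 1. Of the listed genes with 100 or more counts in a library, the 2 highest in either comparison with the parental line were kinesins. KIF1A, a carrier of synaptic vesicle precursors, had 31 parental, 665 adriamycin-resistant and 2531 MM468/PR counts, 14.6-fold higher in the adriamycin-resistant line (10.2 to 21.8) and 52.8-fold higher in MM468/PR (37.2 to 78.1) than in the parental line. KIF26A had 3, 74 and 286 counts, a ratio of 16.9 for the adriamycin-resistant line (5.55 to 83.6) and 61.8 for MM468/PR (20.9 to 301.5). Its relative KIF26B went the other way, with 424, 34 and 57 counts.

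MAP7D2, related to MAP7, had 205 parental, 224 adriamycin-resistant and 5 MM468/PR counts. TTLL7, which adds glutamate chains to beta-tubulin, had 1024, 327 and 1316 counts, and the katanin-like gene KATNAL2 57, 49 and 461. These 2 were the highest of the listed genes in MM468/PR against the adriamycin-resistant line, 3.82-fold (3.38 to 4.32) and 8.91-fold (6.64 to 12.2). By list, 4 of 33 other kinesins were higher and 3 lower in the adriamycin-resistant line, and 5 were higher and 6 lower in MM468/PR. Of 22 other modifying enzymes 1 was higher and 5 lower in the adriamycin-resistant line, and 3 were higher and 1 lower in MM468/PR. Of 19 nucleation genes 0 were higher and 1 lower in the adriamycin-resistant line, and 0 were higher and 4 lower in MM468/PR, and of 18 genes for tubulin biogenesis 0 differed in the adriamycin-resistant line and 1 was higher in MM468/PR. Of 38 other associated proteins 2 were higher and 6 lower in the adriamycin-resistant line, and 6 were higher and 3 lower in MM468/PR. Of 16 dynein and dynactin genes 0 were past 2-fold in the adriamycin-resistant line, and 1 was higher and 1 lower in MM468/PR. The 6 other severing enzymes had 0 past 2-fold in the adriamycin-resistant line and 2 higher in MM468/PR, and the 4 other tubulin genes that passed the filter had 1 higher in either resistant line, at 19 counts or fewer.

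**Figure D4:**
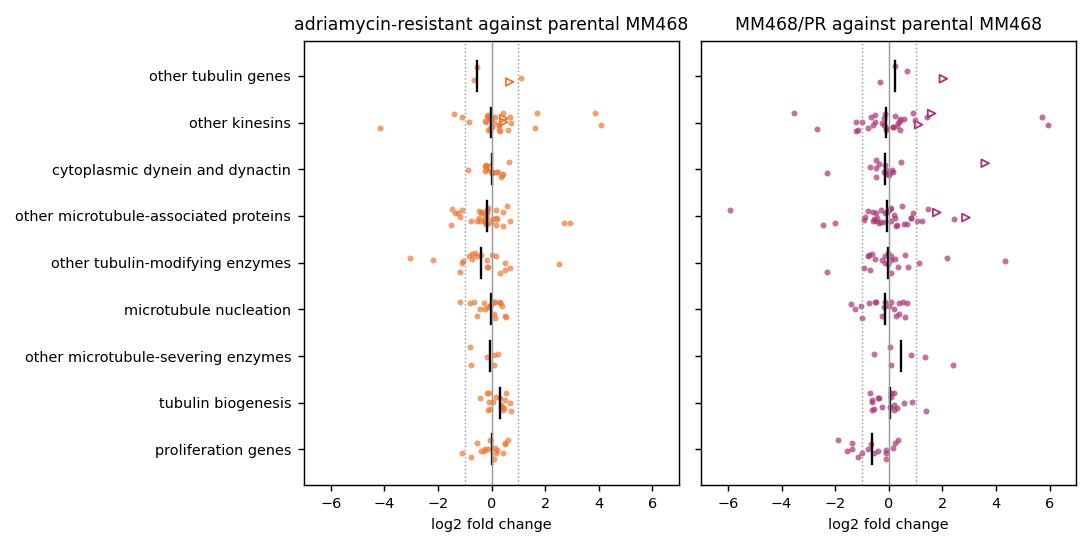
Log2 fold change (horizontal axis) of genes in 8 further microtubule lists and of 16 proliferation genes, in the adriamycin-resistant line (left) and MM468/PR (right) against the same parental library; 1 point per gene, black bars at the median of the genes with counts in both libraries, triangles for lower bounds against 0 counts, dotted lines at 2-fold. Most points lie between the dotted lines, and 6 of the 16 proliferation genes lie left of them in MM468/PR.

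The libraries held 32704885 parental, 47567927 adriamycin-resistant and 43242628 MM468/PR counts, with TMM factors of 0.948, 0.954 and 1.11. Their 10 highest genes took 6.72% to 8.41% of counts, with the smallest share in MM468/PR. The epithelial markers EPCAM, KRT8, KRT18, KRT19, CDH1 and EGFR were at 47.3 TPM or more in every library. On the CPM scale all were within 2-fold of the parental line in both resistant lines. In TPM, CDH1 passed 2-fold in MM468/PR (47.3 parental, 101.8 MM468/PR). Of the receptors low in TNBC, PGR had 0, 0 and 7 counts, ESR1 did not pass 2.55 TPM and ERBB2 lay between 28.1 and 34.6 TPM. The 9 markers of other cell types summed to 16.6 TPM in the parental, 27.8 in the adriamycin-resistant and 12.0 in the MM468/PR library. Of them COL1A2 was at 0 in all 3 libraries, CD3E and PDGFRB in 2 of the 3 and PTPRC in the adriamycin-resistant line. The highest were CD68, with 206 parental, 527 adriamycin-resistant and 65 MM468/PR counts, and COL1A1, with 659, 1629 and 820. The part of these markers in the values above was not tested.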

How the data were processed

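Poly(A) RNA libraries (TruSeq Stranded mRNA) of the 3 lines, 1 library each, were sequenced and analysed by Macrogen Japan. The labels name the MagMAX mirVana kit for RNA extraction, and the study's methods name RNeasy. The submitters' processing notes list Trimmomatic 0.39, HISAT2 2.2.1, StringTie 2.2.1 and GRCh38. Counting settings and use of strand are not given in the sources used here. The authors deposited raw read counts, FPKM and TPM per gene for 46427 genes. Groups were taken from the labels.

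Counts were scaled by TMM over the 3 libraries (edgeR 4.0.16, R 4.3.3) on 19561 genes with 10 or more counts in at least 1 library. Log2 fold changes used edgeR's default prior count of 0.125. With 1 library per line no residual degrees of freedom remain, so the quasi-likelihood test of edgeR was not run and no p-value is given. Intervals are exact (Clopper-Pearson) 95% limits for the ratio of 2 counts. A library with 0 counts was set against 3 counts. The code was checked on simulated counts for MM468/PR against the parental line (18671 genes), with 200 well-counted genes changed. All 200 were recovered in the right direction, and the run was set to stop otherwise. These counts held counting error only, and as many genes were raised as lowered. In the data 60.0% of the genes past 2-fold in that comparison were higher, so the check does not bear on the scaling. The alternatives tried were scaling by library size alone or by the size factors of DESeq2 1.42.0, TMM on the 2 libraries compared, a prior count of 2, no count minimum or one of 100, TPM with a pseudocount of 1 or 0.1, and shares from counts or the deposited FPKM. One alternative, 0 counts set to 3, was chosen after seeing the data.

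Full values are given for every alpha- and beta-tubulin isotype, every gene past 2-fold in any comparison and the 3 highest and 3 lowest per comparison. Of the other lists (8 of microtubule genes, proliferation, epithelial identity, receptors and other cell types) the 2 highest and 2 lowest with 100 or more counts are named, CD68 among them. The members and the lists were chosen with earlier results of these data known. Gene positions, transcripts and tails come from GENCODE release 29 on GRCh38, and the alpha-tubulin tails are not reported here. Tables were made with Python 3.11.15, pandas 2.3.3 and scipy 1.17.1, and plots with matplotlib 3.10.9.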

Additional observations from a re-analysis of the deposited data

How the results depend on the processing

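No paired analysis was possible because each line has 1 library and no result comes from a test. For the same reason no replicate could be left out. Library size alone raised the median of all genes in MM468/PR by 0.22 against the parental line and by 0.21 against the adriamycin-resistant line, on the log2 scale, and TPM with a pseudocount of 1 by 0.30 and 0.35. The share of higher genes among all genes past 2-fold in MM468/PR against the parental line went from 60.0% to 70.8% with library size alone and 71.2% with TPM (pseudocount of 1), and against the adriamycin-resistant line from 59.9% to 71.0% and 76.6%. Among the 48 genes, the adriamycin-resistant line against the parental line gave 1 higher gene in place of 2 with a minimum of 100 counts and with TPM (pseudocount of 1). MM468/PR against the parental line gave 4 higher with library size alone and 5 with TPM (pseudocount of 0.1), and 4 lower with either TPM setting. Its median of -0.24 became -0.02 with library size alone, 0.06 with TPM (pseudocount of 1) and 0.08 (0.1). MM468/PR against the adriamycin-resistant line gave 1 higher with TMM on those 2 libraries, 4 with TPM (pseudocount of 1) and 5 (0.1). It gave 4 lower with library size alone and 2 with either TPM setting. Its median of -0.31 became -0.09 with library size alone, -0.23 with a minimum of 100 counts, 0.04 with TPM (pseudocount of 1) and 0.05 (0.1). The share of TUBB in beta-tubulin was 92.3%, 87.0% and 81.4% by read counts. DESeq2 size factors and a prior count of 2 left the count of genes past 2-fold as it was in each comparison. Of 152 values under alternatives for the differences past 2-fold, 129 stayed past it and 0 changed sign. Among the differences within 2-fold 83 values changed sign. The cause of these shifts was not tested. Depth limits TUBB4A and MAP1A, with at most 47 counts in any library.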

Other observations

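Enzymes that remove and restore the final tyrosine of alpha-tubulin differed in both resistant lines. They were singled out after their values were seen. VASH1, a carboxypeptidase that removes this residue, had 33 parental, 275 adriamycin-resistant and 1037 MM468/PR counts, 5.68-fold higher in the adriamycin-resistant line (95% counting interval, 3.96 to 8.44) and 20.3-fold higher in MM468/PR (14.4 to 29.8) than in the parental line. Its relative VASH2 had 311, 217 and 98 counts, 2.10-fold lower in the adriamycin-resistant line and 4.89-fold lower in MM468/PR. SVBP, the small partner that both need, had 238, 155 and 436 counts, 2.25-fold lower in the adriamycin-resistant line than in the parental line and 2.67-fold higher in MM468/PR than in the adriamycin-resistant line. In TPM, VASH1 stood at 0.280, 1.90 and 8.92 and VASH2 at 4.69, 2.31 and 1.20, so the more abundant of the pair was VASH2 in the parental and adriamycin-resistant lines and VASH1 in MM468/PR.

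Among the dynein and dynactin genes, the dynactin subunit DCTN3 had 2600 parental, 4969 adriamycin-resistant and 804 MM468/PR counts. It was 4.99-fold lower in MM468/PR than in the parental line. The minus-end kinesin KIFC3 had 824, 3893 and 632 counts, 3.23-fold higher in the adriamycin-resistant line and 2.01-fold lower in MM468/PR than in the parental line, the latter under 2-fold in TPM (15.9 parental, 9.97 MM468/PR). In the gamma-tubulin ring complex, which seeds microtubules with TUBG1, the 4 genes lower in MM468/PR than in the parental line were TUBGCP2 (2.05-fold), MZT2A (2.38-fold), MZT2B (2.68-fold) and the augmin subunit HAUS7 (2.02-fold), the last not part of the ring itself. In TPM only MZT2B stayed past 2-fold (183.4 parental, 85.5 MM468/PR), while TUBGCP2 (35.3 and 21.6), MZT2A (54.5 and 29.4) and HAUS7 (49.2 and 30.8) did not. These genes too were named after their values were seen, and with 1 library per line none of the differences was tested.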
